A study of Rattus norvegicus with 6 samples.

Results

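Apoe (Ensembl rat gene ID ENSRNOG00000018454) encodes apolipoprotein E and was followed across 6 RNA sequencing libraries of rat cardiac fibroblasts, the cells that lay down collagen and other matrix in the heart. It is 1 gene of the 27108 in the deposited count table and was selected on its difference between the substrates in these same counts, being lower on the fibrils. Its levels are therefore given as a description, with no test of the difference between substrates. The cells came from the ventricles of neonatal rats and were kept for 48 h on glass before RNA was extracted. In the 3 control libraries (UT) the glass carried fibronectin, an adhesive matrix protein, and nothing else. In the other 3 libraries (TTR) it carried fibronectin together with fibrils of transthyretin, so that all 6 cultures shared the fibronectin. Transthyretin is a plasma carrier protein that misfolds and is deposited in the heart in transthyretin amyloidosis. The labels name no rat strain and no sex, and they do not say whether replicates came from separate cell isolations, so the spread between libraries may be technical. Over genes whose mean count was 20 or more, each library was closer to 1 library of the other group than to any of its own, with a chi-square per degree of freedom between counts of 5.51 to 7.41 in these pairs and 8.78 to 30.5 within the groups.

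Apolipoprotein E is a secreted protein of lipoprotein particles. It binds receptors of the low-density lipoprotein receptor family and heparan sulphate on cell surfaces, and so directs cholesterol-carrying particles into cells. Liver, macrophages and astrocytes are its best known sources, and its transcription is known to respond to the sterol-sensing liver X receptors. The protein is also a known companion of amyloid fibrils in tissue deposits of many kinds.

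The sequence around an annotated start of Apoe transcription is shown as background on the gene whose level is described. Whether this stretch, or any motif match in it, regulates Apoe in these cells was not tested. RefSeq lists 5 Apoe transcripts and the reference table gives 3 start windows of 300 bases. Apoe lies between Apoc1, another apolipoprotein gene, and Tomm40, a gene for a mitochondrial import channel, and no other RefSeq gene overlaps it. The stretch below runs 5′ to 3′ on the minus strand of assembly GRCr8, at chr1:88484670-88484849, from 150 bases before the second of the 3 starts to 30 bases after it. Capitals mark matches, on either strand, to the motif TATAA, the motif GGGCGG or the motif CCAAT.
Apoe promoter stretch: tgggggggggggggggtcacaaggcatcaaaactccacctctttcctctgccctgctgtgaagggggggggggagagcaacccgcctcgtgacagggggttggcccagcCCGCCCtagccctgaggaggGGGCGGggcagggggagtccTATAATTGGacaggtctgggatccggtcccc
With the base just before the start counted as -1, TATAA began at -1 on the gene's strand and so ran across the start. On the same strand GGGCGG began at -21. A further GGGCGG match, read on the opposite strand, began at -41, and a CCAAT match on the opposite strand ran directly into the TATAA and shared its last base. Of 33469 RefSeq promoter windows of the same length, 26.2% held TATAA, 33.1% held GGGCGG and 37.5% held CCAAT. A search of both strands for AGGTCA, held by 16.2% of windows, found no match in any of the 3 Apoe windows. The most upstream Apoe window held none of the 4 motifs, and its G and C content was 52.7%. This content was 63.7% in the window of the printed start and 59.7% in the third window, against a median of 51.7% over all windows. The second window (chr1:88484650-88484949) and the third (chr1:88484471-88484770) overlap and held equal numbers of matches to each motif. The counts are summed over the whole gene, so which start the fibroblasts used was not measured.

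Apoe was lower in all 3 libraries from the fibril substrate than in any control library. The UT libraries held 222, 426 and 336 Apoe counts for replicates 1, 2 and 3. The TTR libraries held 100, 60 and 97. As CPM, counts scaled to library size with TMM factors, Apoe stood at 30.2, 61.8 and 49.7 CPM on UT and at 8.62, 8.22 and 14.5 CPM on TTR. The lowest control library, UT replicate 1, still lay above the highest fibril library, TTR replicate 3. The mean was 47.3 ± 15.9 CPM for UT (SD, n = 3) and 10.5 ± 3.54 CPM for TTR (SD, n = 3), and the means differed 4.52-fold. On the log2 scale the edgeR estimate for TTR minus UT was -2.19 (SE 0.30). Its SE was derived as the size of the estimate over the square root of the edgeR F statistic. The groups likewise did not overlap, with TTR lower, for 373 of the 12049 genes tested, or 3.1%, and nothing is read from Apoe being among them. In RNA from whole cultures, fewer cells that make Apoe and less Apoe RNA in each cell cannot be told apart.

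**Figure D1:**
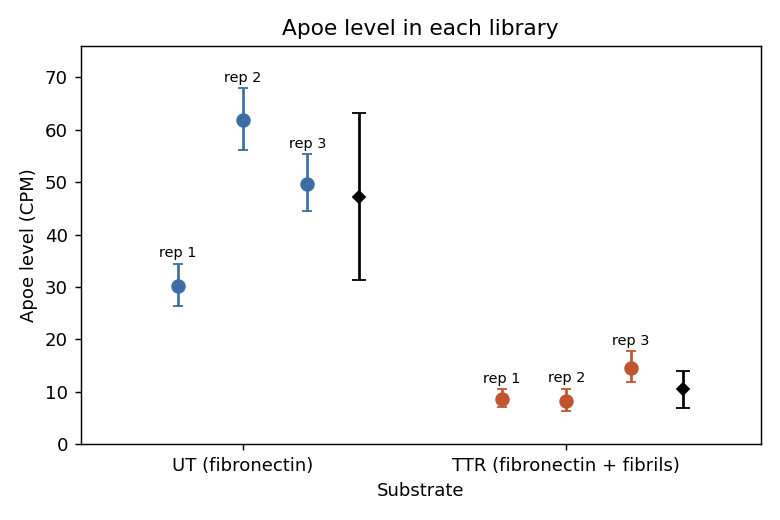
Apoe level in CPM (vertical axis) in each UT and TTR library (circles, with exact 95% Poisson intervals for counting error), beside the mean and SD of each group (diamonds, n = 3). The TTR libraries sit between 8.22 and 14.5 CPM and the UT libraries between 30.2 and 61.8 CPM.

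Counting error was small beside the spread between libraries. The exact 95% Poisson interval, which covers counting error only, ran from 26.4 to 34.5 CPM in UT replicate 1, the lowest of its group. In UT replicate 2, the highest, it ran from 56.1 to 68.0 CPM, so these control libraries differed by more than counting error. UT replicate 3 lay between them, with an interval of 44.6 to 55.4 CPM that did not reach either. On the fibril substrate the intervals of TTR replicate 1 (7.01 to 10.5 CPM) and TTR replicate 2 (6.28 to 10.6 CPM) overlapped. TTR replicate 3 stood apart from both, at 11.8 to 17.7 CPM. The highest library exceeded the lowest 2.04-fold within UT and 1.77-fold within TTR.

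In relative terms Apoe varied alike in the 2 groups, and with a larger spread than the median gene. Its coefficient of variation was 33.7% on UT and 33.8% on TTR. The variance of its counts over that expected from counting alone, as chi-square per degree of freedom, was 38.7 on UT and 9.09 on TTR, where the median tested gene had 2.90 and 3.96. At the same coefficient of variation this measure grows with the count, and Apoe had 984 counts on UT and 257 on TTR. It therefore does not show a wider relative spread on UT. The SD of log2 CPM for Apoe was 0.53 on UT and 0.45 on TTR, against medians of 0.18 and 0.20 over all tested genes. The biological coefficient of variation that edgeR fitted was 24.6% for Apoe, 16.0% for the trend at its level and 15.2% for the median gene. 

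The size of the difference depended on which libraries were set side by side. Over the 9 pairs of 1 UT and 1 TTR library the ratio of Apoe CPM, UT over TTR, ran from 2.08 to 7.52. The smallest ratio, for UT replicate 1 over TTR replicate 3, had an exact conditional 95% interval of 1.63 to 2.67 from counting error. The largest, for UT replicate 2 over TTR replicate 2, had an interval of 5.73 to 10.0. Libraries with the same replicate number gave ratios of 3.51, 7.52 and 3.42 for numbers 1, 2 and 3. In every pair Apoe was higher on UT, which follows from the groups not overlapping.

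Apoe was set beside the variation that all 12049 tested genes shared. Over all genes, deviations from the group means correlated best across the groups for UT replicate 1 with TTR replicate 3 (r = 0.52), UT replicate 2 with TTR replicate 2 (0.44) and UT replicate 3 with TTR replicate 1 (0.58). Apoe did not deviate in a common direction within these pairs. Its log2 deviation from the group mean was -0.58 in UT replicate 1 and 0.51 in TTR replicate 3. In UT replicate 2 it was 0.45 and in TTR replicate 2 it was -0.29. In UT replicate 3 and TTR replicate 1 the deviations were 0.13 and -0.22. Within all 3 pairs the signs were therefore opposite, and the UT over TTR ratio was 2.08 in the first pair, 7.52 in the second and 5.77 in the third. The pairs were found in these same counts, and no test was made of this pattern.

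Among all tested genes Apoe had the log2 difference farthest below 0. The next lowest was -1.94, and among the 8854 genes with a mean of at least 10 CPM, where Apoe lies with 28.9 CPM, the next lowest was -1.003. Only Apoe of these 8854 genes was at least 3-fold lower on TTR. In the other direction 17 tested genes had a difference as large as that of Apoe or larger, 3 of them at 10 CPM or more. At least 2-fold lower on TTR were 29 of the 12049 genes, or 0.241%, and the median size of the log2 difference over all genes was 0.10. Of the variance of Apoe log2 CPM over the 6 libraries 87.8% lay between the groups, against 7.83% for the median gene. These ranks come from the contrast that chose the gene.

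**Figure D2:**
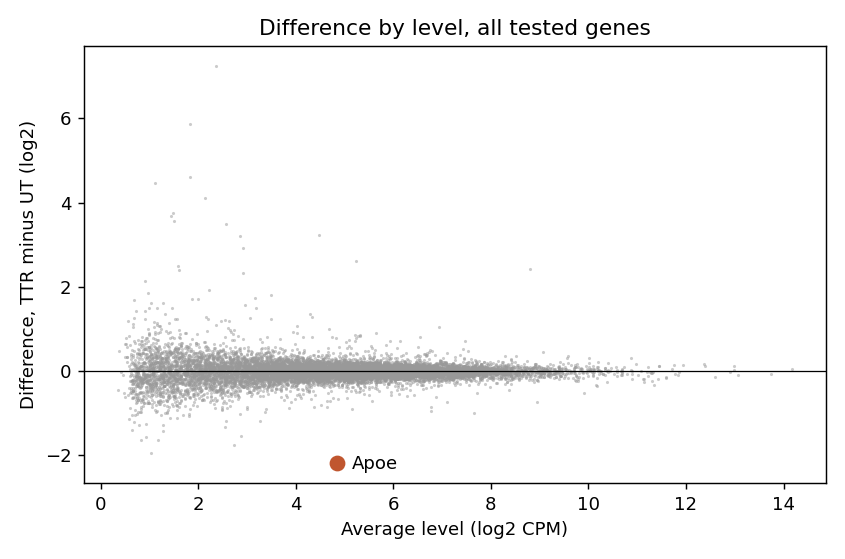
Difference between TTR and UT (log2, vertical axis) against the average level (log2 CPM, horizontal axis) for the 12049 tested genes (grey points), with Apoe marked. Apoe lies at -2.19, below every other point, at a level where most genes lie near 0.

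With p-values adjusted by Benjamini-Hochberg, the quasi-likelihood test of edgeR called 1 of the 12049 genes (0.0083%) between the substrates, and this gene was higher on TTR. It called 0 genes lower on TTR. At an unadjusted p under 0.05 in the edgeR test, 103 genes were lower and 182 higher on TTR, or 285 of 12049. That is less than the share of 0.05 that such a threshold passes where no gene differs. DESeq2 called 2 lower and 35 higher among 13932 genes with an adjusted p. Among 12049 genes limma-voom called 0 lower and 1 higher. Leaving out UT replicate 2 gave 2 edgeR calls and leaving out TTR replicate 1 gave 9, and leaving out any other library gave 1. None of these fits has a term for the pairs of libraries from different groups that deviated together. Total counts ran from 6574199 to 11774729 a library, and 15476 to 16237 genes had a count. The deepest library, TTR replicate 1, held 100 Apoe counts where TTR replicate 3, the shallowest, held 97.

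The Apoe difference was re-estimated under 14 other settings. Other scalings, tools and low count filters and the replicate number as a block moved the log2 difference only between -2.19 and -2.15. Leaving out a library moved it more. Without UT replicate 2, the control library richest in Apoe, it was -1.95 (SE 0.30). Without TTR replicate 3, the fibril library richest in Apoe, it was -2.48 (SE 0.30), and without UT replicate 1 it was -2.43 (SE 0.25). With 3 libraries a group, a mean can move only by a part of the SD between replicates when 1 is left out, so the size of these shifts is no sign of stability.

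**Figure D3:**
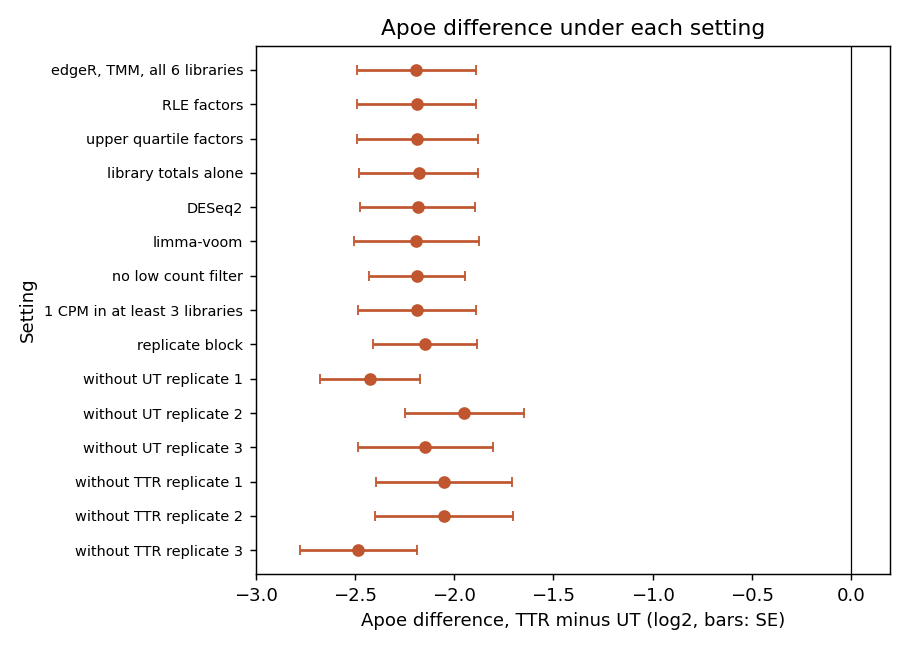
Apoe difference, TTR minus UT (log2, horizontal axis), with its SE under each setting (vertical axis). The edgeR SEs are derived from the F statistic, and those of DESeq2 and limma-voom come from their own fits. All points lie between -2.48 and -1.95, and the ends of that range come from leaving out TTR replicate 3 and UT replicate 2.

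The genes named below as most like Apoe over the 6 libraries had smaller differences. The same holds for every other tested gene lower on TTR, so nothing is read from it. Likeness was measured as Pearson's r of log2 CPM over the 6 libraries, for the 10144 other tested genes with a mean of at least 5 CPM, and is a description. With r of at least 0.95 there were 10 genes, and 21 had an r as strong with the opposite sign. Over so few libraries some genes reach such an r without any relation to Apoe, and as most of the Apoe variance lay between the groups, the choice of these genes all but fixed their direction on TTR. The counts are therefore no sign that other genes move with Apoe. The genes are given by ID, since no row of the table carries a symbol.

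The gene most like Apoe was ENSRNOG00000009311 (r = 0.99, n = 6 libraries). It stood at 39.1, 43.8 and 42.3 CPM on UT and at 33.4, 31.9 and 35.97 CPM on TTR, the order of the libraries being that of Apoe throughout (Spearman's rho 1). Its log2 difference was -0.31 (SE 0.12), against -2.19 for Apoe. Next came ENSRNOG00000047089 (r = 0.99), at 11.3, 14.1 and 12.1 CPM on UT and 8.19, 8.22 and 9.44 CPM on TTR. Here too UT replicate 2 was the highest and TTR replicate 3 the highest of its group, with a log2 difference of -0.54 (SE 0.18).

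The most opposite profile was that of ENSRNOG00000010756 (r = -0.997). It stood at 165.6, 148.5 and 157.2 CPM on UT and 194.1, 195.98 and 182.4 CPM on TTR. Its log2 difference was 0.28 (SE 0.10). ENSRNOG00000049370 (r = -0.99) stood at 15.7, 13.8 and 14.8 CPM on UT and 19.0, 18.9 and 17.1 CPM on TTR, with 0.32 (SE 0.14) for the log2 difference. Both were lowest in UT replicate 2, where Apoe was highest. Within the groups, r of the deviations from the group means was 0.97, 0.94, -0.98 and -0.97 in the order given. They were picked as extremes of 10144 genes over 6 libraries that share their group difference, and none was called by the edgeR test (adjusted p = 0.999 for each).

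**Figure D4:**
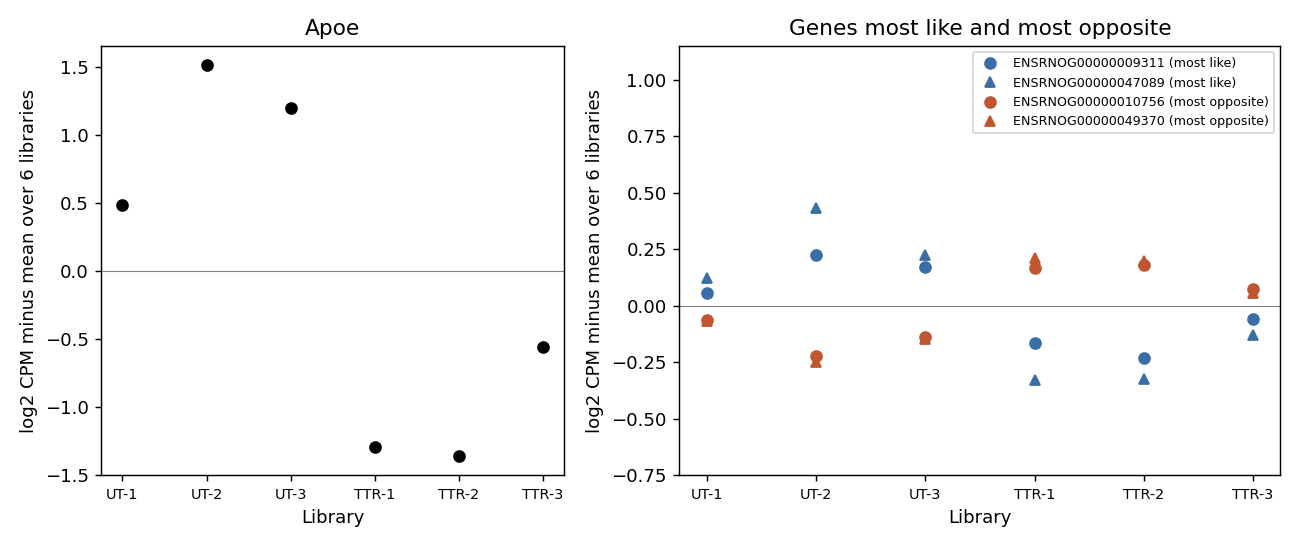
Level (log2 CPM minus the mean over the 6 libraries, vertical axes) in each library (horizontal axes) for Apoe (left) and for the pair of genes most like it and the pair most opposite (right). The right panel has a narrower axis range, and the genes there differ between TTR and UT by -0.54 to 0.32 on the log2 scale, against -2.19 for Apoe.

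Lipoprotein receptors, liver X receptor targets, the other apolipoproteins and the genes beside Apoe were not analysed here, because 0 of the 27108 IDs were paired with a symbol in the reference table. For the same reason the labelled cell type was not checked against fibroblast markers, and markers of macrophages and glia, which make Apoe in other tissues, were not examined. Their part in the Apoe difference was not tested.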

How the data were processed

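The authors deposited raw counts, 1 row per gene and 1 column per library. STAR, featureCounts, edgeR and build rn6 are named in the submitters' processing notes. Versions, annotation, strand setting and the handling of multi-mapping reads were not given in the sources used here. Each column name is the description label of 1 sample. The name Apoe comes from the rule that selected the gene by its ID. The gene and all lists were chosen with earlier results of these data known.

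TTR was compared with UT by the edgeR (4.0.16, R 4.3.3) quasi-likelihood F-test, two-sided, on all 6 libraries, with no covariate. The filter on low counts was filterByExpr (minimum count 10), libraries were scaled by TMM, and the threshold was a Benjamini-Hochberg adjusted p of 0.05 over 12049 genes. The script was tested on simulated counts for 12049 genes. It called 68% of 100 genes changed 2-fold and 96% of 100 changed 4-fold, with 12 false calls. The simulated libraries were drawn independently, without the deviations shared across groups that were found here. CPM used TMM-adjusted totals, and log2 CPM a prior count of 2. Alternatives were other scalings, DESeq2 (1.42.0), limma-voom (limma 3.58.1), other filters, a replicate block and each library left out. Genes were to be named from 18 lists (230 symbols) and by likeness to Apoe. As no ID was paired with a symbol, the lists were not analysed and 2 like and 2 opposite genes are named by ID. Promoter windows are from RefSeq (GRCr8), matched by symbol. No pair of libraries agreed within sampling noise (smallest chi-square per degree of freedom 5.51, from genes whose mean count was 20 or more).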

Additional observations from a re-analysis of the deposited data

How the results depend on the processing

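The log2 difference of Apoe was below 0 under all 14 alternatives and ran from -2.48 to -1.95 with a library left out. Neither shows stability: the groups do not overlap, and leaving out 1 of 3 libraries moves a mean only by a part of the SD between replicates. The count of genes called between the substrates was 1 of 12049 by edgeR and 37 of 13932 with DESeq2. Without a low count filter the count was 36 of 18627, and 3 of 12491 where genes needed 1 CPM in 3 libraries. With a library left out it ran from 1 to 9, among 12170 to 12220 genes. It was 9 without TTR replicate 1 and 2 without UT replicate 2. With the replicate number as a block the count was 0 of 12049 and the Apoe difference was -2.15. At an unadjusted p under 0.05 in edgeR there were 223 genes with the block and 285 without it. Over all genes, the 2 libraries numbered 1 (r = -0.38) and the 2 numbered 3 (r = -0.40) did not deviate together. Only those numbered 2 did (r = 0.44), and only they correlated best with their own number. The block therefore takes up only 1 of the 3 pairs of libraries that deviated together. The number of genes with r of at least 0.95 to Apoe was 10, and 32 when deviations from the group means were used. The cause of these changes was not tested. List members were not tested, as rows have no symbols. Counting error was smaller than the spread between libraries for Apoe, so 3 libraries a group, more than depth, set its precision.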
